A study of Rattus norvegicus with 12 samples.

Results

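The miRNA miR-9a was followed across small RNA libraries of cultured rat cortical neurons through its 2 mature products, rno-miR-9a-5p and rno-miR-9a-3p. They were picked out by name, with earlier results of these data known. They are 2 of the 805 small RNA names counted, of which 685 are miRNAs. The neurons came from Sprague Dawley rat cortices at embryonic day 17, were plated at 100000 cells per square centimetre, were transduced by lentivirus on day 10 in vitro and harvested on day 14. The construct expressed a hairpin RNA that is non-targeting (shNTC) or is directed against Stau2 (shStau2) or Pum2 (shPum2). The study took shNTC as its reference and shPum2 as a second control for changes that an active hairpin brings by itself. Each group had 4 libraries, which the labels number 1 to 4 and describe as biological replicates, and all 12 came from transduced cultures. RNA was isolated as a batch, with an integrity number of 9.5.

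MiRNAs are cut out of hairpin precursors by Drosha and then Dicer, which leaves a short duplex made of the 5′ arm (5p) and the 3′ arm (3p) of the hairpin. Usually 1 arm is kept in an Argonaute protein and guides it to mRNAs through the seed, bases 2 to 8 of the miRNA, while the other arm is lost. MiR-9 is a conserved miRNA of the nervous system, found in neural progenitors and in neurons. Both of its arms are known to act: the 5p arm represses the transcriptional repressor REST and the orphan nuclear receptor TLX, and the 3p arm, often written miR-9*, represses the REST partner CoREST. Staufen2, the product of Stau2, binds double-stranded RNA, and Pumilio 2, the product of Pum2, binds motifs in mRNAs.

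The mature arms are shown because their seeds define what each can target and because their complementarity bears on how 2 further names were counted. Sequences are those of RefSeq on the rat build GRCr8, 5′ to 3′, with the seed in capitals. Of the 685 miRNA names, 613 were matched to a mature sequence there, and no other matched name shared either seed.
rno-miR-9a-5p: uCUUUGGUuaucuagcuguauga
rno-miR-9a-3p: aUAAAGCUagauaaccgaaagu
The 5p arm has 23 bases and the 3p arm 22. Bases 6 to 17 of the 5p arm form the longest stretch, 12 bases, whose reverse complement is in the 3p arm. In RefSeq 3 hairpins give these arms, shown here because they differ around the arms and in the loop but not in the arms, which are in capitals.
Mir9-1: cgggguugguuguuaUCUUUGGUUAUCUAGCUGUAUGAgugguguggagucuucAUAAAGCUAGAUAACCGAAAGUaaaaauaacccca
Mir9-2: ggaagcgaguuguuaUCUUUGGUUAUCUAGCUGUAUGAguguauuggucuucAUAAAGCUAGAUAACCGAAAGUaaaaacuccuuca
Mir9-3: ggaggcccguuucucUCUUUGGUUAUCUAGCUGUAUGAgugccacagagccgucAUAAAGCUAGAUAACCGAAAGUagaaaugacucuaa
On GRCr8, Mir9-1 lies at chr2:175974971-175975059, Mir9-2 at chr2:15933292-15933378 and Mir9-3 at chr1:142849400-142849489, each on the plus strand. Mir9-1 overlaps the long non-coding RNA LOC100911992, Mir9-2 overlaps Mir9-2hg, which is annotated as protein coding, and Mir9-3 overlaps the long non-coding RNA Mir9-3hg. The loop between the arms has 16 bases in Mir9-1 and Mir9-3 and 14 in Mir9-2. Folded with RNAfold, the 3 hairpins had minimum free energies of -41.0, -39.0 and -40.9 kcal per mol in that order, with 21 of 23 bases of the 5p arm and 20 of 22 bases of the 3p arm paired in each. Since the arms are identical, a count of either arm cannot be assigned to a locus, and the values below sum over all 3.

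Library totals lay between 3836349 and 5415763 counts, and 3 counts, taken as the floor of detection, were worth 0.558 to 0.788 CPM (counts scaled to a library of 1e+06). Neuronal marker miRNAs were present in every group, and 8 of 8 had counts. Their summed level ranged over 114282 to 121535 CPM for shNTC, 115270 to 126599 for shStau2 and 110951 to 132426 for shPum2. Most of each sum was miR-128-3p, at means of 89900, 92447 and 90955 CPM in that order. The lowest neuronal marker was miR-153-3p, at 138, 130 and 145 CPM. The 3 oligodendrocyte markers summed to 222 to 384 CPM over all libraries. Of 7 microglia or blood markers 6 were named in the tables, and these summed to between 126 and 389 CPM, with the red cell miRNA miR-451-5p at 0 in shStau2. The 6 markers of vessels or mesenchyme gave 618 to 800 CPM (shNTC), 502 to 628 (shStau2) and 590 to 851 (shPum2). The 5 markers listed for astrocytes gave 5260 to 9565 CPM (shNTC), 3106 to 5322 (shStau2) and 4179 to 6758 (shPum2). They were miR-21-5p, miR-23a-3p, miR-27a-3p, miR-449a-5p and miR-143-3p, which also stands among those of vessels or mesenchyme. The highest was miR-21-5p, at means of 3388, 1608 and 2201 CPM in that order. The lowest was miR-143-3p, at 121, 99.7 and 175 CPM. Their sum is therefore not a measure of astrocytes alone. In such bulk samples fewer cells of a type and less of an RNA per cell cannot be told apart.

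MiR-9a-5p was the most abundant miRNA in 12 of 12 libraries. In shNTC it took 17.1, 20.8, 19.4 and 19.6% of the miRNA counts in replicates 1 to 4, in shStau2 18.4, 17.9, 19.3 and 18.4%, and in shPum2 18.8, 18.2, 20.9 and 19.3%. The 3 groups overlapped, and the widest spread was within shNTC. The group means (SD, n = 4) were 19.2% ± 1.55, 18.5% ± 0.562 and 19.3% ± 1.18 in that order. Counts of the 5p arm lay between 720942 and 1066341 per library, so counting error was small beside this spread: the Wilson 95% interval of the lowest share ran from 17.08 to 17.14%.

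MiR-9a-3p, the less abundant arm, was still the fifth miRNA by mean level. Its share was 4.13, 3.86, 4.05 and 3.86% in shNTC replicates 1 to 4, 4.13, 3.45, 3.81 and 3.58% in shStau2, and 3.98, 3.53, 3.99 and 3.30% in shPum2. The group means were 3.98% ± 0.135, 3.74% ± 0.296 and 3.70% ± 0.340 (SD, n = 4), and the groups overlapped. Counts of the 3p arm lay between 139809 and 218058. The sum of both arms came to 21.2 to 24.9% of all miRNA counts, with a mean of 22.8% ± 1.19 (SD over 12 libraries).

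The first 4 names by level were the same in 12 of 12 libraries. With library sizes scaled by the trimmed mean of M-values (TMM), miR-9a-5p stood at 190368 ± 15379 CPM over the 12 libraries (SD). The second name in 12 of 12 libraries was miR-125b-5p, a miRNA of neuronal differentiation, at 132800 ± 13947 CPM. MiR-9a-5p had 1.32 to 1.75 times its counts in shNTC, 1.25 to 1.36 times in shStau2 and 1.39 to 1.63 times in shPum2. Next came the neuronal miR-128-3p at 91246 ± 7877 CPM and let-7c-5p, a miRNA of differentiated cells, at 74951 ± 5991 CPM. MiR-9a-3p followed at 38138 ± 3685 CPM, and miR-16-5p, which is expressed in most tissues, at 33605 ± 3466 CPM. The spread of these last 2 overlapped, although miR-9a-3p was above miR-16-5p in 11 of 12 libraries. In shPum2 replicate 4, where miR-9a-3p was lowest, it ranked 7 and in the other 11 libraries 5. Let-7b-5p, at 32281 ± 3049 CPM, and let-7f-5p, at 31672 ± 1812 CPM, came next and did not differ beyond their spread from miR-16-5p. All of these are counts per mature name, of nearly equal length, and they were not converted into molecules per cell.

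The comparison of shStau2 with shNTC asked whether miR-9a levels differ under the hairpin directed against Stau2. How far Staufen2 or Pumilio 2 was depleted cannot be read from small RNA counts. MiR-9a-5p stood at 168798, 194203, 204584 and 190120 TMM-scaled CPM in shNTC replicates 1 to 4 and at 184067, 176960, 211916 and 188807 in shStau2. The groups overlapped almost entirely, with means of 189426 ± 15040 and 190438 ± 15124 CPM (SD, n = 4), and shStau2 was higher in 2 of 4 replicate numbers. The log2 fold change was 0.0077 (SE 0.084) with an adjusted p of 0.984 in edgeR's quasi-likelihood test over 628 miRNAs. The 95% interval of the difference ran from -11.2 to 13.9%. Only 13 of the 628 miRNAs had a smaller absolute log2 fold change, against a median of 0.14 over all. The estimate for miR-9a-5p was far smaller than its SE, and that SE was below the median of 0.17 over all. Its place in that order was not tested and is not a trait of miR-9a-5p.

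MiR-9a-3p in the same comparison had 40719, 36018, 42739 and 37413 CPM in shNTC and 41369, 34056, 41944 and 36832 CPM in shStau2. Libraries of the same number lay close together, and shStau2 was the higher in 1 of 4 numbers. The log2 fold change was -0.025 (SE 0.096, edgeR adjusted p = 0.965), and the interval ran from -14.7 to 13.2%. Over all miRNAs 2 of 628 passed the threshold of an adjusted p of 0.05, both lower in shStau2, which is 0.318% of those tested, and neither arm of miR-9a was among them. DESeq2 called 10 miRNAs there.

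Libraries with the same replicate number deviated together across miRNAs, so the same comparison was also made with the number as a block. The block raised the calls to 39 of 628, 15 higher and 24 lower in shStau2, or 6.21%. Neither arm was called there either. For miR-9a-5p the blocked log2 fold change was 0.0069 (SE 0.052, edgeR adjusted p = 0.973), with an interval from -6.88 to 8.43%. For miR-9a-3p it was -0.027 with an adjusted p of 0.849 and an interval from -9.51 to 6.50%.

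In shPum2 miR-9a-5p stood at 180960, 178593, 221436 and 183977 CPM, with a mean of 191241 ± 20250 (SD, n = 4). Replicate 3 was well above the other three, and the group overlapped shNTC. Against shNTC the log2 fold change was 0.014 (edgeR adjusted p = 0.982), the interval ran from -10.9 to 14.3%, and shPum2 was higher in 2 of 4 numbers. MiR-9a-3p had 38329, 34634, 42156 and 31446 CPM in shPum2, with a mean of 36641 ± 4629 against 39222 ± 3063 in shNTC. It was lower than the shNTC library of its number in 4 of 4 numbers, although the groups overlapped. The log2 fold change was -0.098 with an adjusted p of 0.982, and the interval ran from -18.9 to 7.64%. In that fit edgeR called 0 of 628 miRNAs (0%), with 9 at an unadjusted p under 0.05, and DESeq2 called 0 as well. With the block 1 miRNA, 0.159% of those tested, was called. The blocked estimate for miR-9a-3p was -0.10 on the log2 scale (SE 0.056), at an unadjusted edgeR p of 0.0837 and an adjusted p of 0.659, with an interval from -14.1 to 1.05%.

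Between the groups with an active hairpin, shStau2 against shPum2, the estimate for miR-9a-5p on the log2 scale was -0.0061 (edgeR adjusted p = 0.989). The interval ran from -12.1 to 12.8%. For miR-9a-3p it was 0.073 (adjusted p = 0.844), over an interval of -8.69 to 21.2%. Of 628 miRNAs 3 were called, all lower in shStau2 (0.478%), and with the block 25 (3.98%). The 3 calls were not stable: leaving out 1 library gave 0 to 4, with 0 for 8 of the 12 libraries, upper-quartile factors gave 0 and DESeq2 gave 7. Neither arm was called in any of these fits. The 3 comparisons share libraries and are not independent of each other.

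**Figure D1:**
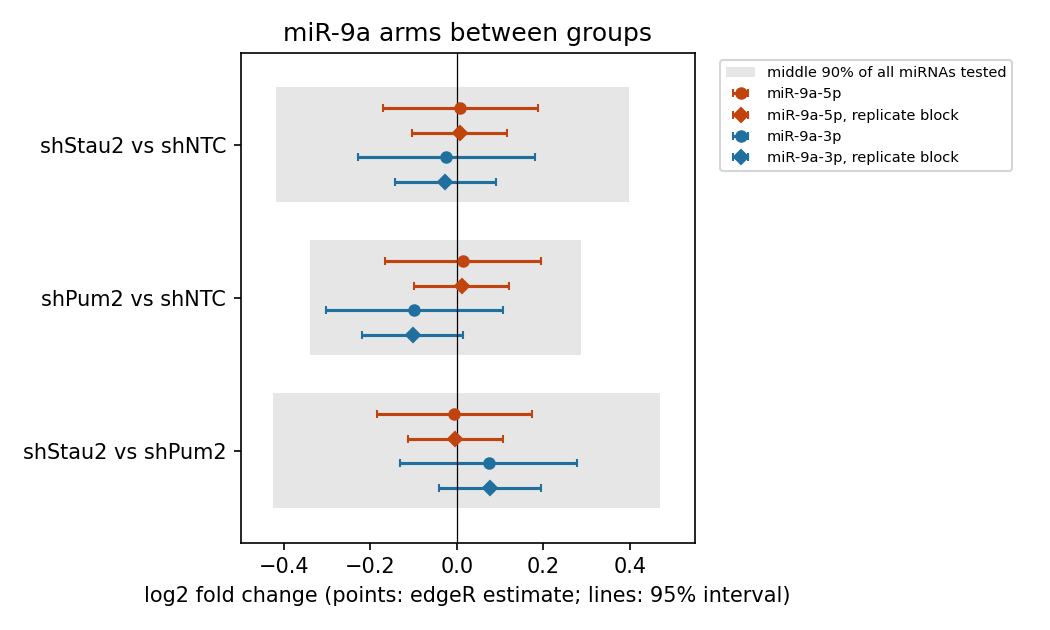
Log2 fold changes of miR-9a-5p and miR-9a-3p (x axis) in the 3 comparisons (y axis), as edgeR estimates without and with the replicate number as a block; lines are 95% intervals, and grey bars span the middle 90% of all 628 miRNAs tested without the block. Each of the 12 intervals covers 0, and the estimates run from -0.10 to 0.08.

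Differences in the plain share of counts were tested for each arm alone. The mean share of miR-9a-5p differed by -0.760 percentage points between shStau2 and shNTC (two-sided exact permutation p = 0.343), by 0.0743 points between shPum2 and shNTC (exact p = 0.914) and by -0.834 points between shStau2 and shPum2 (exact p = 0.286). For miR-9a-3p the differences were -0.233 points (exact p = 0.2), -0.276 points (exact p = 0.229) and 0.0434 points (adjusted exact p = 0.914). After adjustment over the 6 tests the smallest exact p was 0.514, and 4 libraries against 4 can reach 0.0286 before adjustment. A single test at that floor would not fall under 0.05 after adjustment, so a difference of 1 arm in 1 comparison could not be called. Within replicate numbers the 5p share was lower in shStau2 than in shPum2 in 4 of 4 numbers, with differences from -1.68 to -0.278 points. That held for plain shares only: by TMM-scaled level the 5p arm was higher in shStau2 in 2 of 4 numbers. The 3p share was lower in shPum2 than in shNTC in 4 of 4 numbers, with differences from -0.562 to -0.0669 points. It was also lower in shStau2 than in shNTC in numbers 2 to 4, with differences from -0.409 to -0.241 points, while in number 1 the gap was -0.00066 points, far inside the counting intervals of both libraries. The exact sign-flip test gives 0.125 for each of these share differences (0.25 after adjustment over 6 tests), which is the smallest p that 4 pairs allow. For the 3p share in shStau2 it counts that tie as lower.

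The arm ratio, counts of miR-9a-5p per count of miR-9a-3p, does not depend on how libraries are scaled. It was 4.15, 5.39, 4.79 and 5.08 in shNTC replicates 1 to 4, 4.45, 5.20, 5.05 and 5.13 in shStau2, and 4.72, 5.16, 5.25 and 5.85 in shPum2. Replicate 1 was lowest in each group, and the groups overlapped. The means were 4.85 ± 0.532, 4.96 ± 0.343 and 5.25 ± 0.465 (SD, n = 4), so the 5p arm made up 80.6 to 85.4% of the counts of the hairpin. The log2 ratio had a within-group SD of 0.13, against a counting error of at most 0.0042.

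No group difference in the arm ratio passed the test. In limma over 208 hairpins with both arms measured, the log2 ratio differed by 0.035 (SE 0.121, adjusted p = 0.920) between shStau2 and shNTC, a fold of 1.02 with an interval from 0.853 to 1.23. Between shPum2 and shNTC the fold was 1.08, with an interval from 0.902 to 1.30 (limma adjusted p = 0.944), and between shStau2 and shPum2 it was 0.946, with an interval from 0.788 to 1.14 (limma adjusted p = 0.826). Exact permutation tests of miR-9a alone gave p = 0.657, 0.343 and 0.343 in the same order. Limma called 0 of 208 hairpins (0%) in each comparison, and with the block 1 hairpin (0.481%) for shStau2 against shNTC and 0 in the other comparisons. The blocked adjusted p of miR-9a was 0.869, 0.815 and 0.736.

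**Figure D2:**
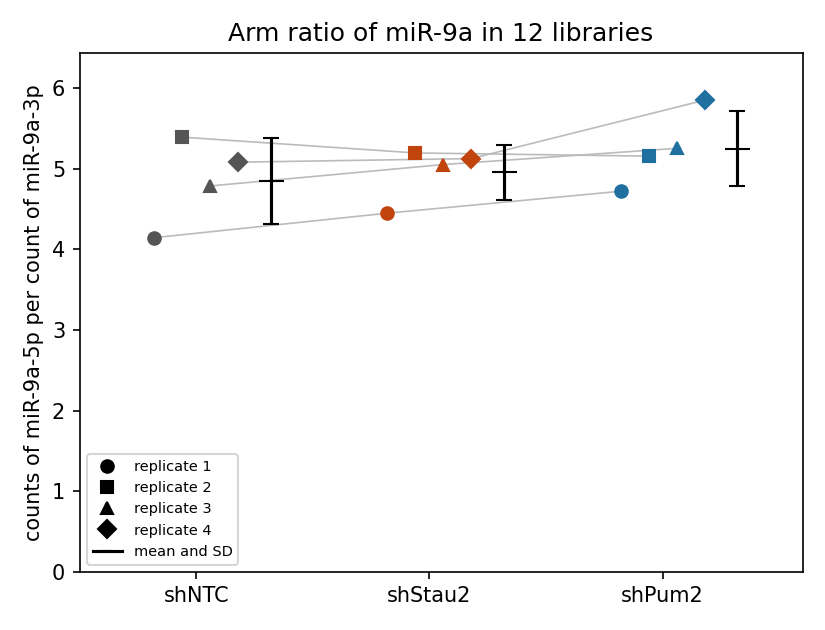
Counts of miR-9a-5p per count of miR-9a-3p (y axis) in each of the 12 libraries by group (x axis); grey lines join libraries with the same replicate number, and bars are mean ± SD (n = 4). The values lie between 4.15 and 5.85, and replicate 1 is the lowest library of each group.

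Set against other hairpins with both arms under 1 shared name, miR-9a combined the highest total with the most abundant minor arm. Its arms summed to 228506 CPM, first among 208 hairpins, and its 3p arm alone had 38138 CPM, while the next highest minor arm, of miR-384, had 1444 CPM. MiR-125b-5p, miR-128-3p and let-7c-5p had no such pair and were left out, although nearer in level at 132800, 91246 and 74951 CPM. Among the 208, the 5 hairpins nearest in total level were those of miR-16, let-7b, miR-125a, miR-26a and let-7i. Their minor arm, the 3p arm in each, made up 0.230, 0.605, 0.507, 0.0332 and 0.359% of the hairpin's level in that order, where that of miR-9a made up 16.7%. Over all 208 hairpins the median fold between the arms was 8.86, and 75 (36.1%) had a smaller fold than miR-9a. Among the 59 hairpins with a total of at least 1000 CPM the median was 61.6, and 2 had a smaller fold. These are descriptions of levels, for which no test was made.

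The within-group SD of the miR-9a arm ratio, 0.13 on the log2 scale, compared with a median of 0.29 over the 208 hairpins, 18 of which had a smaller SD. Among the 59 abundant hairpins the median was 0.22, and 10 had a smaller SD. Counting error differs widely here: it alone gives a median SD of 0.194 over the 208 hairpins and 0.0824 over the 59, against 0.0038 for miR-9a. Over the 11 hairpins whose counting error was under 0.05, miR-9a included, the median within-group SD was 0.135 and 4 had a smaller one, so miR-9a lay near the middle.

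**Figure D3:**
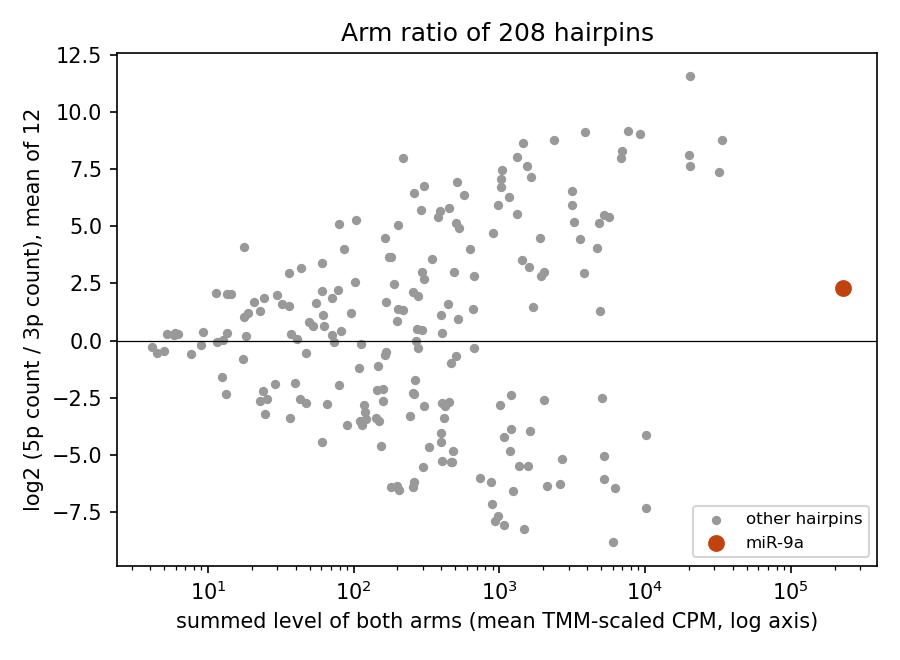
Log2 ratio of 5p to 3p counts, mean of 12 libraries (y axis), against the summed level of both arms in TMM-scaled CPM (x axis, log scale) for 208 hairpins; the red point is miR-9a. MiR-9a lies farthest to the right, at 228506 CPM, with a log2 ratio of 2.32. Its nearest neighbours by level among these 208 lie above 7.

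Means by replicate number spread wider than means by group. Group means of miR-9a-5p differed by at most 1.01-fold, while the means of the 3 libraries of a number, 177941, 183252, 212645 and 187635 CPM for numbers 1 to 4, differed by up to 1.20-fold. For miR-9a-3p the group means differed by up to 1.07-fold and the number means, 40139, 34903, 42279 and 35230 CPM, by up to 1.21-fold. The number means of the arms were ordered differently. In number 1 the 5p arm was at its lowest mean and the 3p arm near its highest, in number 3 both were at their highest, and the mean arm ratio was 4.44, 5.25, 5.03 and 5.35 for numbers 1 to 4. The labels do not say what the numbers stand for.

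In edgeR the replicate-number term had F = 7.10 and an adjusted p of 0.0127 for miR-9a-5p, and F = 9.15 with an adjusted p of 0.00447 for miR-9a-3p. Of all 628 miRNAs 164 passed for this term, which is 26.1%. Neither call passed without the 3 libraries of number 3. For miR-9a-5p the fold between number means then fell to 1.05 and the adjusted p was 0.631. For miR-9a-3p the fold was still 1.15, with an adjusted p of 0.0789 in the smaller fit. Those libraries also had the lowest TMM factors, 0.909 to 0.949 against 0.973 to 1.07 in the others. With library totals alone the adjusted p was 0.329 for miR-9a-5p and 0.0347 for miR-9a-3p, and the part of the scaling in the pattern was not tested further. The astrocyte markers summed to 4691 to 7003 CPM in number 1, 5322 to 9565 in number 2, 3891 to 5643 in number 3 and 3106 to 5260 in number 4, and their part was not tested. For the arm ratio the term gave F = 2.71 and an adjusted p of 0.297 in limma, where 12 of 208 hairpins (5.77%) passed.

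**Figure D4:**
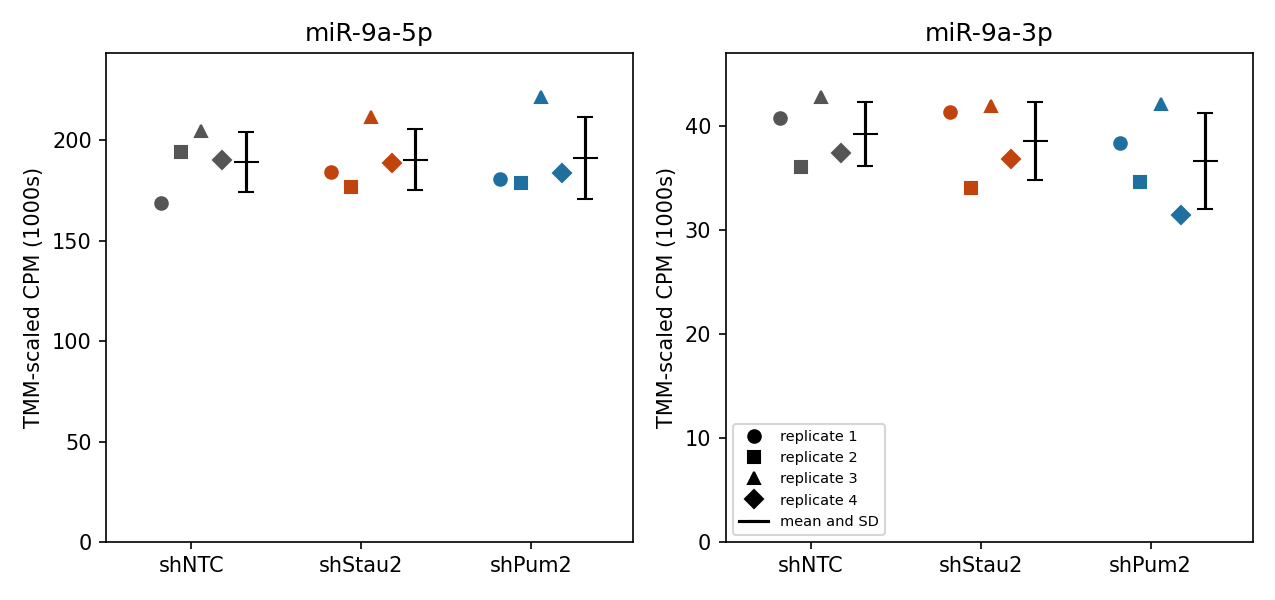
Levels of miR-9a-5p (left) and miR-9a-3p (right) in units of 1000 TMM-scaled CPM (y axes) in each of the 12 libraries by group (x axes); marker shapes give the replicate number and bars mean ± SD (n = 4). Replicate 3 is the highest library of each group for both arms, while the group means differ by at most 1.01-fold and 1.07-fold.

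Across the 12 libraries the arms followed each other only loosely. Pearson's r between their log2 CPM was 0.50 (Spearman's rho 0.57) over the 12 libraries, which share scaling and replicate numbers. It was 0.092 with library totals alone and 0.29 after removal of the mean of each replicate number. Of the 229 other miRNAs with at least 100 CPM, those most like miR-9a-5p were miR-9b-3p (r = 0.96), miR-322-5p (0.87), miR-15a-5p (0.82), miR-129-5p (0.76) and miR-181a-1-3p (0.75). The median r was 0.087, and the least alike were miR-540-3p (-0.80), miR-412-5p (-0.77) and miR-146b-5p (-0.75). After removal of the number means r was 0.89 for miR-9b-3p, 0.76 for miR-15a-5p, 0.53 for miR-322-5p, 0.40 for miR-181a-1-3p and -0.15 for miR-129-5p. For the least alike it was then -0.81 for miR-540-3p, -0.54 for miR-412-5p and -0.29 for miR-146b-5p. With library totals alone the last 2 had r of -0.43 and -0.47.

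A different set followed miR-9a-3p: miR-22-3p (r = 0.92), miR-195-5p (0.86), miR-30a-5p (0.86), miR-384-3p (0.82) and miR-138-2-3p (0.81). The least alike were miR-5132-3p (-0.89), miR-370-3p (-0.87) and miR-770-3p (-0.79), against a median of 0.16 over the 229. After removal of the number means r was 0.65 for miR-22-3p, 0.59 for miR-384-3p and for miR-138-2-3p, 0.20 for miR-195-5p and 0.11 for miR-30a-5p. It was -0.70 for miR-5132-3p and -0.74 for both miR-370-3p and miR-770-3p. All r are descriptions over 12 libraries.

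The names miR-9b-3p and miR-9b-5p stand in the tables beside miR-9a, and their sequences are shown because they run antisense to the miR-9a arms. RefSeq places them on the minus strand opposite the Mir9 hairpins, as products of Mir3597-1, Mir3597-2 and Mir3597-3, with miR-9b-3p listed for 2 of the 3.
rno-miR-9b-3p: aUACAGCUagauaaccaa
rno-miR-9b-5p: uUCGGUUAucuagcuuuau
Capitals again mark the seed. The whole of miR-9b-3p, 18 bases, is the reverse complement of bases 4 to 21 of miR-9a-5p, which are in capitals in the next line.
rno-miR-9a-5p: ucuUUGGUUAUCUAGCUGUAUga
The whole of miR-9b-5p, 19 bases, is the reverse complement of bases 1 to 19 of miR-9a-3p, again in capitals.
rno-miR-9a-3p: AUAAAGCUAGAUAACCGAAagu
Read in the sense direction from base 1, miR-9b-3p also resembles miR-9a-3p: 16 of 18 bases are identical, and the substitutions are A4C and G17A, with the base of miR-9a-3p first and positions counted from the 5′ end.

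Levels of miR-9b-3p were 6135 ± 587, 6056 ± 730 and 6207 ± 918 CPM for shNTC, shStau2 and shPum2 (SD, n = 4), and it ranked 19 to 26. MiR-9b-5p had 72.3 ± 5.28, 71.7 ± 9.31 and 67.6 ± 13.2 CPM. Neither was called between groups in edgeR (lowest adjusted p 0.945 for miR-9b-3p and 0.863 for miR-9b-5p without the block). MiR-9b-3p had 3.02 to 3.40% of the counts of miR-9a-5p, with a mean of 3.22% ± 0.127 over the 12 libraries. Set against miR-9a-3p, which it resembles in sequence, it had 13.1 to 18.9%, with a mean of 16.1% ± 1.73. MiR-9b-5p had 0.156 to 0.206% of the counts of miR-9a-3p.

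Across the libraries each miR-9b name kept the steadiest ratio to the arm to which it is antisense. The log2 ratio of miR-9b-3p to miR-9a-5p had an SD of 0.057 over the 12 libraries, the smallest for any of 230 partners, followed by miR-30e-3p at 0.106, and the median was 0.219. With miR-9a-3p the SD was 0.159, place 34. The log2 ratio of miR-9b-5p to miR-9a-3p had an SD of 0.118, the smallest of 231, followed by miR-384-5p at 0.143, and with miR-9a-5p the SD was 0.219, place 58. Counting error alone gives 0.0089 for miR-9b-3p to miR-9a-5p and 0.082 for miR-9b-5p to miR-9a-3p. This relation was looked at after the values of the names had been seen. No label says whether the authors' counting used strand, and whether the miR-9b counts are antisense RNA was not tested.

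**Figure D5:**
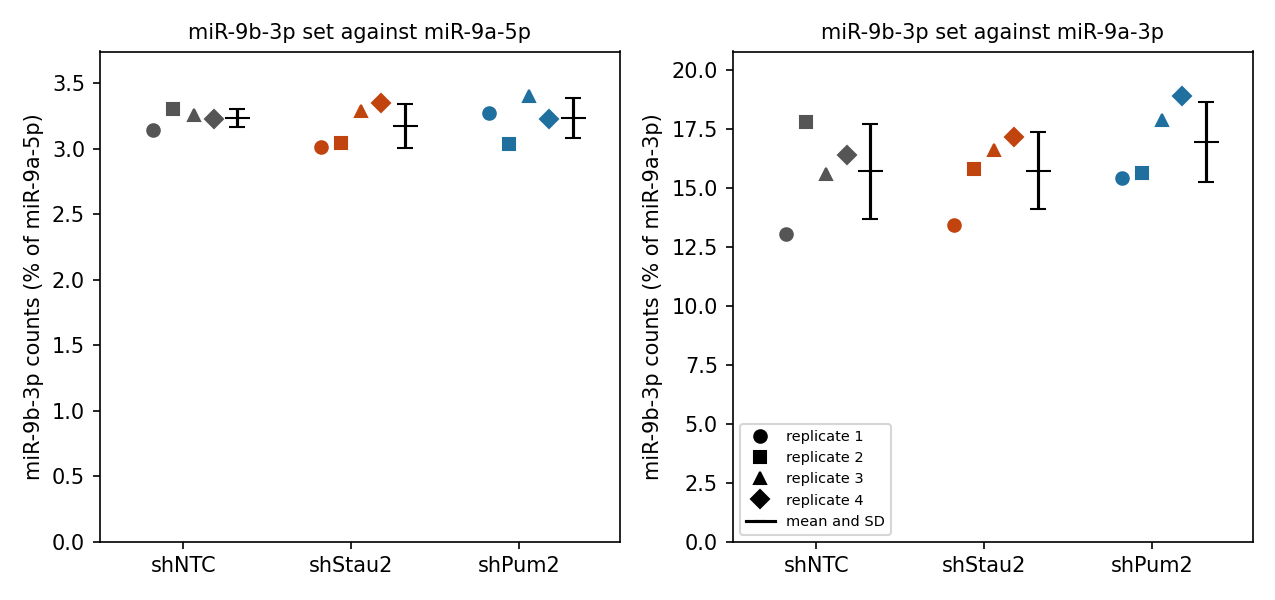
Counts of miR-9b-3p as a percentage of miR-9a-5p (left y axis) and of miR-9a-3p (right y axis) in each of the 12 libraries by group (x axes); marker shapes give the replicate number and bars mean ± SD (n = 4). The left values stay between 3.02 and 3.40%, and the right values run from 13.1 to 18.9%.

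A list of 20 other miRNAs, put together as neural miRNAs of the miR-9 circuit, was described, and 19 were measured under their own name. It was chosen with earlier results of these data known, and whether its members act with miR-9 was not tested. None of the 19 was called in any comparison without the block. Their median log2 fold change was 0.09 in shStau2 and 0.01 in shPum2 relative to shNTC, and 0.08 in shStau2 relative to shPum2, where the median of all miRNAs was 0.00, 0.00 and 0.01. With the block, 1 of 19 rose in shStau2 against shNTC and 2 of 19 against shPum2, none fell, and none was called for shPum2 against shNTC. The shares to set these against are the 6.21%, 3.98% and 0.159% of all miRNAs called in those blocked fits.

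MiR-125b-5p, the second most abundant name, ran from 110730 to 136474 CPM with shNTC, from 138572 to 156213 with shStau2 and from 113050 to 135452 with shPum2. These ranges are descriptions only, since the share of all 628 miRNAs whose groups separate was not counted. With the block the log2 fold change of miR-125b-5p in shStau2 was 0.25 (SE 0.057, edgeR adjusted p = 0.0147) against shNTC. Against shPum2 it was 0.23 (SE 0.057, edgeR adjusted p = 0.0292). Without the block the adjusted p was 0.205 and 0.379. MiR-7a-5p, a neuronal miRNA, had 11449 to 15403 CPM in shNTC, 12326 to 16024 in shStau2 and 10867 to 12928 in shPum2. Its blocked log2 fold change in shStau2 against shPum2 was 0.24 (SE 0.062, edgeR adjusted p = 0.0348), with an adjusted p of 0.473 without the block. Against shNTC it was not called in shStau2 (blocked edgeR adjusted p = 0.154), where the ranges overlapped. MiR-124-3p, the classic miRNA of mature neurons, stood at 4861 ± 629, 5457 ± 361 and 4979 ± 229 CPM for shNTC, shStau2 and shPum2 (SD, n = 4), and was not called in edgeR (blocked adjusted p = 0.195 for shStau2 against shNTC).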

How the data were processed

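Small RNA was sequenced in 12 libraries, 4 per group. The authors deposited whole-number counts per small RNA name for each library, which are not normalised. The kit tags molecules with unique identifiers, per the labels' protocols. The submitters' processing notes name the build Rnor 6.0. Aligner, counter, strand setting, and whether reads or molecules were counted are not given in the sources used here, so intervals and floors (3 counts) cover counting error only.

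For the 685 miRNA names, edgeR 4.0.16 under R 4.3.3 was used (TMM, filterByExpr, robust quasi-likelihood test, all 12 libraries, Benjamini-Hochberg adjustment, threshold 0.05), and 628 passed the filter. The 120 piRNA names entered only library totals and an alternative. Arm ratios, log2 with 0.5 counts added per arm, were tested with limma 3.58.1. Hairpins needed both arms under 1 shared name, and 208 of 235 such hairpins had both arms past the filter. Shares were compared by exact permutation (scipy 1.17.1). DESeq2 1.42.0 was an alternative. Hairpins were folded with ViennaRNA 2.7.2 RNAfold. The counting error of arm ratios was added after seeing the data. The fits without the block were checked on simulated counts with known changes and no replicate-number structure, and the blocked fits were not. No 2 libraries of a group agreed within sampling noise.

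Groups share replicate numbers in the labels. Deviations from group means correlated at 0.342 to 0.571 in the 12 same-number pairs and at -0.388 to 0.120 in the 36 other pairs, and 12 of 12 libraries correlated best with their own number, so the numbers were taken as pairing the libraries and the blocked values are given. Named miRNAs were both arms, names of miR-9a or miR-9b or with a shared seed, neighbours in level, the 5 most and 3 least alike over 12 libraries among miRNAs with at least 100 CPM, the 5 hairpins nearest in total, and the list of 20. Members and lists were chosen with earlier results of these data known. Alternatives covered scaling, filter, tool, feature set, pseudocount, denominator, block and left-out libraries.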

Additional observations from a re-analysis of the deposited data

Results flagged for a closer look

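For 10 quantities of miR-9a and miR-9b, 30 group values in all, a library far from the rest of its group was looked for, and 1 was found. In shPum2, miR-9a-5p was at 221436 TMM-scaled CPM in replicate 3, against 178593 to 183977 in the other 3 libraries. The gap was 0.874 of the range of the group, above Dixon's 95% critical value for 4 samples. Chance gives such a value in about 1 of 20 groups. Replicate 3 was also the highest library of shNTC and of shStau2, at 204584 and 211916 CPM. Without it, the log2 fold change of miR-9a-5p was -0.065 in shPum2 relative to shNTC and 0.071 in shStau2 relative to shPum2, and neither was called.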

How the results depend on the processing

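Over 297 alternatives, no comparison of miR-9a levels, shares or arm ratios between groups passed the threshold (smallest adjusted p 0.25, in sign-flip tests of shares). For part of the share alternatives this outcome was fixed. The sign-flip tests cannot go below 0.125, and the 0.25 is that floor after adjustment. Exact permutation with a library of a compared group left out cannot go below 0.0571. That these share tests did not pass therefore does not show that the shares were equal. Of the 297 alternatives, 273 kept the direction and 24 reversed. For miR-9a-5p, upper-quartile factors gave -0.0093 in shPum2 relative to shNTC and 0.028 in shStau2 relative to shPum2, and library totals gave -0.058, or -0.078 with miR-9a left out of the total, for shStau2 against shNTC.

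Leaving out each library in turn, the log2 fold changes of miR-9a-5p for shStau2 against shNTC, shPum2 against shNTC and shStau2 against shPum2 ran from -0.044 to 0.043, -0.065 to 0.064 and -0.066 to 0.071. Those of miR-9a-3p ran from -0.065 to 0.027, -0.17 to -0.035 and 0.0056 to 0.15, and those of the arm ratio from -0.039 to 0.088, 0.042 to 0.17 and -0.13 to -0.026. Share differences ran from -1.47 to -0.236, -0.636 to 0.598 and -1.20 to -0.291 points for the 5p arm and from -0.361 to -0.135, -0.372 to -0.144 and -0.0893 to 0.141 for the 3p arm. Calls over all miRNAs ran from 1 to 3, 0 to 0 and 0 to 4. The 1 came without shStau2 replicate 3. In shStau2 against shPum2 the calls fell to 0 without replicates 1 or 3 of shNTC, 2, 3 or 4 of shStau2, or 1, 3 or 4 of shPum2.

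The replicate block raised the calls to 39, 1 and 25, and changed no call of miR-9a. With a number left out of the block, calls ran from 5 to 27, 0 to 2 and 6 to 51, the lowest without number 4, numbers 1, 3 or 4, and number 1 (for shStau2 against shNTC 23 without number 1 or 2). Blocked values of miR-9a-5p then ran from -0.037 to 0.054, -0.017 to 0.075 and -0.032 to 0.0093, with -0.0077 for the first without number 3 and -0.0042 for the second without number 1. Those of miR-9a-3p ran from -0.048 to -0.010, -0.12 to -0.056 and 0.024 to 0.098.

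DESeq2 called 10, 0 and 7, and with the block, an alternative chosen after seeing the data, 35, 2 and 28. For shStau2 against shPum2, upper-quartile factors or a fit of the 8 libraries compared gave 0 calls and totals less miR-9a gave 6. The adjusted p of the replicate-number term ran from 0.00231 to 0.631 for miR-9a-5p, 0.00993 to 0.0789 for miR-9a-3p and 0.254 to 0.899 for the arm ratio with a number left out, and was 0.329 for miR-9a-5p with library totals. The cause of these shifts was not tested. Taken from the counts as deposited, the counting error of miR-9a was far below the spread between libraries. The part of depth was not tested.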

Other observations

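The relation between miR-9b and miR-9a was set beside other names that are antisense to each other, a search chosen after seeing the data. Among the matched names with at least 10 CPM, 21 pairs had a run of at least 15 bases in reverse complement, and in 13 of them the more abundant partner had at least 1000 CPM. In those 13 the less abundant name had 0.185 to 19.4% of the counts of its partner, with a median of 4.12%. MiR-9b-5p against miR-9a-3p was the lowest of these, and miR-9b-3p against miR-9a-5p, at 3.22%, lay near the median. MiR-3588 had 3.45% of the counts of miR-125b-5p, miR-3596d had 2.64% of let-7f-5p, and miR-218b had 2.38% of miR-218a-5p. The SD of the log2 ratio over the 12 libraries lay between 0.0432 and 0.283 for these pairs, with a median of 0.0835, against 0.057 for miR-9b-3p and miR-9a-5p. Strand was not analysed here, and the origin of the counts of the antisense names was not tested.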
